A study of Homo sapiens with 4 samples.

Results

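H3K9me3, the trimethylated form of lysine 9 of histone H3, was described around 10 genes for transcription factors. They were grouped as factors of cell lineages other than that of the osteosarcoma cells studied. SOX9, a factor of cartilage, and MEIS2, used in limb, fit that name less well. The genes were SOX2, PAX6, MYOD1, NEUROD1, GATA4, NKX2-5, PDX1, NANOG, MEIS2 and SOX9, chosen by name and position. The choice did not use their values, but it was made with earlier results of these data known. For each gene a window of 500 kb was taken on hg19, 250 kb on either side of a position given for the gene to the nearest 10 kb, and the share of it lying inside called peaks was measured. The central 20 kb was set against the other 480 kb, called the flank below. The cells were U2OS, an established human osteosarcoma line, and the titles of all samples carry the name KRAB-IDR3-TCF3, which the labels do not explain. An Abcam antibody against H3K9me3 was used for 2 samples, and 2 more are inputs that saw no antibody. Nothing in the labels says whether they came from separate cultures or clones. The values came from 2 broad peak lists, called list 1 and list 2. The labels tie list 1 to both inputs and list 2 to both antibody samples, whereas the names of the peaks in both lists say immunoprecipitation, so neither list was given to a group. The 10 windows held 599 of the 326674 peaks of list 1 and 518 of the 264919 peaks of list 2 on chromosomes 1 to 22 and X. The lists carry the numbers 1 and 2, and the sources used here do not say if they stand for replicate antibody samples. They were therefore not averaged or tested as replicates, and all values describe these lists. The sequencing depth is unknown, because a list of peaks gives no numbers of reads.

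H3K9me3 is laid down by the SUV39H and SETDB1 methyltransferases and is bound by HP1 proteins, which can condense the chromatin that carries it. KRAB zinc finger proteins bring SETDB1 to their target sites through the co-repressor KAP1. Genes of lineages that a cell does not use are kept silent in several ways. Some lie in H3K9me3 chromatin, while many genes for developmental transcription factors, whose promoters are rich in the dinucleotide CG, are held by Polycomb proteins and H3K27me3. Neither expression nor H3K27me3 was measured here, so whether each gene was silent in these cells was not tested.

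The promoters of 3 of the genes are shown as examples, picked for their letters and peak patterns. A relation between letters and coverage was not tested. SOX2 and NEUROD1 have CG-rich promoters, and their central 20 kb was covered less than the flank at SOX2 and more than the flank at NEUROD1. NANOG has a promoter poor in CG, and its central 20 kb was covered more than the flank. In list 2 the higher centre held under only 5 of 9 alternative settings at NANOG. At NEUROD1 in list 2 it turned with a centre of 10 kb. The sequences are the 250 bases before the transcription start in RefSeq on GRCh38.p14, with each CG dinucleotide in capitals. These coordinates belong to another build than the peaks, so no peak was placed on them.
SOX2 (GRCh38.p14, chr3:181711675-181711924, plus strand): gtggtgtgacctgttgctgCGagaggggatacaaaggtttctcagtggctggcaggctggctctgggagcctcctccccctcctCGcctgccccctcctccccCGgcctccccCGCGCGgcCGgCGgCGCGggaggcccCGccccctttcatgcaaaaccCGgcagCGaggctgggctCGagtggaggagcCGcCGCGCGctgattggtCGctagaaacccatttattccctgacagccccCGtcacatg
NEUROD1 (GRCh38.p14, chr2:181680518-181680767, minus strand): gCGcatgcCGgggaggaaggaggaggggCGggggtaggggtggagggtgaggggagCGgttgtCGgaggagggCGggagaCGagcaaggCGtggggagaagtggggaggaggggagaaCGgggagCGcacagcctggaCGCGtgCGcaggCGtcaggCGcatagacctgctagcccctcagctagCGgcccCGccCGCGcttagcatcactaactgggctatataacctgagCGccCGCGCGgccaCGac
NANOG (GRCh38.p14, chr12:7789152-7789401, plus strand): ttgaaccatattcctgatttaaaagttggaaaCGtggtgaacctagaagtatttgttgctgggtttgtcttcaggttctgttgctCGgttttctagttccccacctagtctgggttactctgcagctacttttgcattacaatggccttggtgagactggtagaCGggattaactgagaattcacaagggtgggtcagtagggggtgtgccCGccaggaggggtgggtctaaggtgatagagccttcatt
The SOX2 promoter holds 20 CG dinucleotides, a number reached by 32.4% of 34941 promoters of the same length. NEUROD1 holds 24, reached by 23.6%, and NANOG holds 4, reached by 70.6%. The letters CG read the same on both strands, and 93.9% of these promoters hold at least 1. The median over these promoters is 11. Promoters were matched for 5 of the 10 genes, which also include MEIS2, with 13 and 26 CG at its 2 starts, and PAX6, with 3 to 28 at its 9 starts.

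The genes fell into both directions. The central 20 kb was covered less than the flank in both lists at SOX2, GATA4, NKX2-5, MEIS2 and SOX9, and more than the flank in both lists at PAX6, NEUROD1 and NANOG. MYOD1 and PDX1 had opposite signs in the lists, but their differences in list 2 were small, at 2.12 and -2.39 percentage points. Those signs held under only 4 of 9 alternative settings at MYOD1 and 3 of 9 at PDX1, so the contrast between the lists is not stable. Among the genes with like signs, MEIS2 in list 1 differed by -2.41 points and kept its sign under 3 of 10 settings. NANOG in list 2 kept its sign under 5 of 9. The counts for both lists include these unstable signs. A lower centre in both lists was thus found at 5 of 10 genes, where 43.1% of 5664 windows of 500 kb laid end to end along the chromosomes had one. A higher centre in both lists was found at 3 of 10, against 36.1% of those windows. In each list alone the centre was lower at 6 of 10 genes, against 49.6% of all windows in list 1 and 57.6% in list 2. These shares lie near those of the genome, so the 10 genes as a set gave no result on direction.

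Deep dips were found at a subset of the genes. The centre was covered less than 0.5 times as much as the flank at SOX2, GATA4 and NKX2-5 in both lists and at MEIS2 in list 2. This is 3 of 10 genes in list 1 and 4 of 10 in list 2, against 20.3% and 34.9% of all windows, so the counts again lie near the background. SOX9 lay just outside this limit in list 2, with 0.504 times the coverage of its flank. A centre without any peak base was found at GATA4 in both lists and at MEIS2 in list 2, that is at 1 and 2 of 10 genes, against 6.04% and 18.9% of all windows. Over the 10 genes, the median covered share was 51.5% in the centre and 54.3% in the flank in list 1, and 22.3% and 30.1% in list 2. The median of the differences by gene was -11.3 percentage points in list 1 and -6.89 in list 2, against 0.298 and -2.37 over all windows. The sign of the median in list 1 rested on where the centre was placed: it was 3.46 with the centre moved 10 kb towards lower coordinates and 0.221 with a centre of 60 kb.

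**Figure D1:**
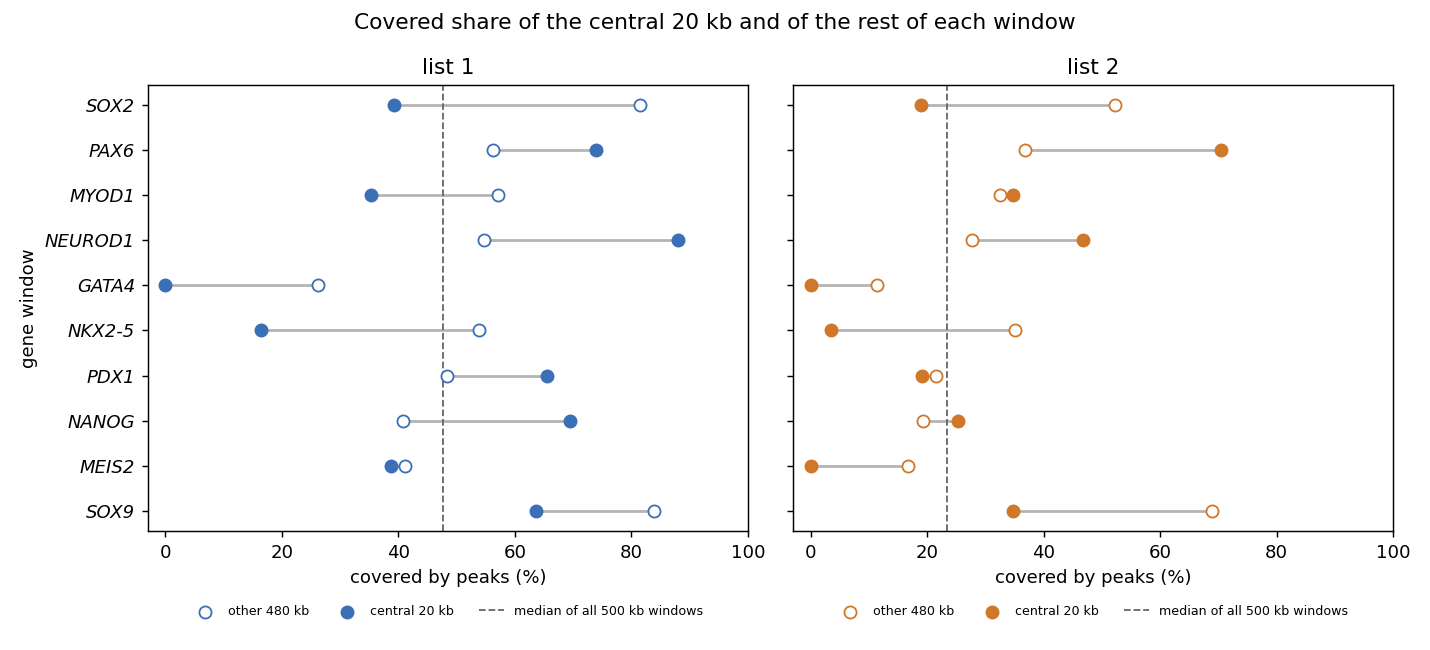
Covered share in percent of the central 20 kb (filled points) and of the other 480 kb (open points) for each of the 10 gene windows, in list 1 (left) and list 2 (right). The dashed line is the median covered share of all 500 kb windows. The filled point lies left of the open point in both lists at SOX2, GATA4, NKX2-5, MEIS2 and SOX9, and right of it in both at PAX6, NEUROD1 and NANOG.

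SOX2, a factor of pluripotent and neural stem cells, had the deepest dip of the 10 genes in list 1. Its window, chromosome 3 from 181180001 to 181680000, was among the densely covered ones, at 79.8% in list 1 and 51.0% in list 2. The central 20 kb was covered 39.2% against 81.5% of the flank in list 1, and 18.9% against 52.3% in list 2. No other of the 25 bins of 20 kb in the window was covered less than the central one in list 1, and 1 was in list 2. The middle of the dip was a peak-free stretch of 7.22 kb in list 1 and 12.4 kb in list 2. At its edge list 1 held a narrow peak of 733 bp, from 181430336 to 181431068, whose fold enrichment of 2.44 was the highest in the window and above the 99th percentile of list 1 (2.42). List 2 had no peak there, and its nearest peak began at 181434536 with a fold of 1.90, the lowest of that list. The widest peak of list 1 in the window, 146 kb from the middle, was 82.9 kb long. The neighbouring protein-coding genes in RefSeq are DNAJC19 and ATP11B. The difference was -4.84 and -3.56 percentage points with the centre moved 10 kb towards higher coordinates, and -36.6 and -37.8 with it moved 10 kb towards lower ones. With a centre of 60 kb it was -17.7 and -21.2. In list 1 it was -7.47 when only peaks with at least the −log10 p that every peak of list 2 had were kept, a limit that lowered the coverage of the flank as well.

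NANOG, the homeobox factor of the pluripotent state, differed from SOX2 in both level and direction. Its window, chromosome 12 from 7690001 to 8190000, had 41.9% of its length in peaks in list 1 and 19.6% in list 2, below the median of all windows (47.7% and 23.4%). The centre was covered 69.5% against 40.8% of the flank in list 1 and 25.3% against 19.4% in list 2. A peak of 7.69 kb, from 7934245 to 7941934, lay over the middle in list 1, with a fold of 1.72. List 2 held 4 short peaks in the centre, of which the one at 7938651 to 7939079 had a fold of 2.47. Just beyond the centre, the bin 20 kb towards higher coordinates was covered 10.5% and 1.72%. With the centre moved 10 kb that way the difference in list 1 was -9.49 percentage points, and in list 1 kept to the limit of list 2 as for SOX2 it was 0.439. In list 2 the higher centre held under 5 of 9 alternatives, with a lowest value of -13.8, so list 2 gave no stable direction at NANOG. The neighbouring protein-coding genes are NANOGNB and SLC2A14.

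PAX6, a paired-box factor of eye, brain and endocrine pancreas, had the most covered centre of all 10 genes in list 2. The central 20 kb, chromosome 11 from 31810001 to 31830000, had 74.0% of its bases in peaks of list 1 and 70.4% in peaks of list 2, while the flank was covered 56.2% and 36.8%. Peaks of 9.85 kb in list 1 (31814704 to 31824550, fold 1.86) and 8.01 kb in list 2 (31815364 to 31823376, fold 2.62) lay over the middle. The next peak of list 2, from 31824688 to 31829463, had the highest fold of the window in that list at 2.73. Coverage changed in a step at the gene, but it was not even on either side. The bin 60 kb towards lower coordinates was covered 66.3% and 54.0%, and the bin 160 kb towards higher ones 41.55% and 14.8%. The 240 kb on the side of lower coordinates, towards IMMP1L, were covered 35.4% and 14.1%, and those on the side of higher coordinates, towards RCN1, 77.0% and 59.4%. The bin just before the centre was covered 33.2% and 17.1% and the bin just after it 93.7% and 90.8%. The direction of the centre therefore turned when it was moved 10 kb towards lower coordinates, to -18.3 and -8.83 percentage points. It also turned, to -17.8, in list 1 kept to the limit of list 2 as for SOX2. RefSeq has the gene ELP4 overlapping PAX6. PAX6 is 28.9 kb long there, longer than the central 20 kb, and its 9 starts were not placed on hg19.

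NEUROD1, a basic helix-loop-helix factor of neurons and pancreatic endocrine cells, had the most covered centre of the 10 genes in list 1. The centre, chromosome 2 from 182530001 to 182550000, was covered 88.0% in list 1, against 54.7% of the flank. In list 2 it was covered 46.8% against 27.6%. In list 1 peaks of 10518 bp and 14652 bp reached into the centre from both sides and left 2.41 kb free between them. The free stretch ran from 0.578 kb before to 1.83 kb after the middle. In list 2 a peak of 540 bp, from 182539900 to 182540439, lay over the middle with a fold of 2.54, in the stretch that was free in list 1. Coverage in list 2 was thus split into 5 short peaks, and with a centre of 10 kb the difference there was -10.8 percentage points. The higher centre of list 1 held under each of the 10 alternative settings that gave a value.

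**Figure D2:**
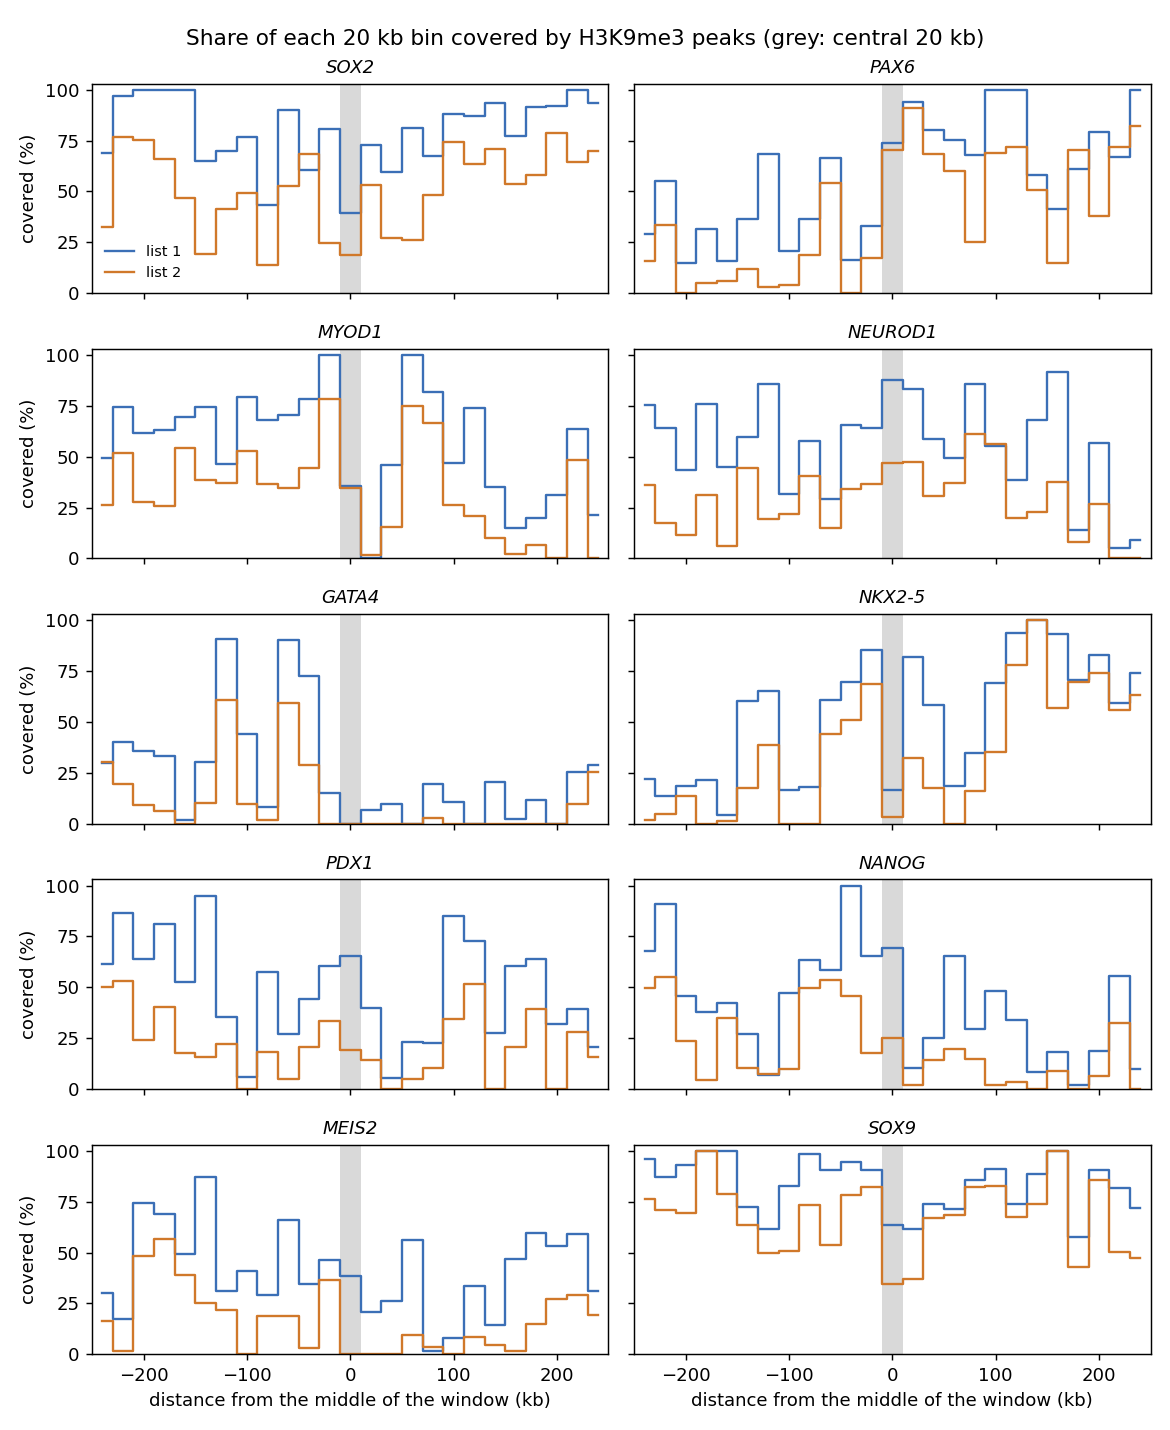
Covered share in percent of each of the 25 bins of 20 kb across the 10 gene windows, against the distance from the middle in kb, for list 1 (blue) and list 2 (orange). The grey band marks the central 20 kb. A dip in the band is seen at SOX2, NKX2-5 and, in list 2, SOX9, a step at PAX6, and a long stretch with few peaks at and beyond the centre of GATA4.

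GATA4, a zinc finger factor of heart, gut and gonads, had the least covered window. Over chromosome 8 from 11330001 to 11830000, the covered share was 25.1% and 10.9%, although chromosome 8 as a whole stood at 59.0% and 37.3%. No base of the central 20 kb lay in a peak in either list. The free stretch around the middle was 38.9 kb long in list 1 and 107 kb in list 2. The side of lower coordinates, towards BLK, was covered 41.0% and 19.6%, and the side of higher coordinates, towards NEIL2, 11.3% and 3.15%. In list 2, 12 of the 25 bins held no peak base, and the longest free stretch ran 152 kb. GATA4 is 83.1 kb long in RefSeq, longer than the central 20 kb, and its start was not placed on hg19. The low coverage reached beyond the central 20 kb: a centre of 60 kb still differed from the flank by -20.3 and -12.4 percentage points. In list 1 kept to the limit of list 2 the difference was -4.79.

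NKX2-5, a homeobox factor of the developing heart, had a dip with densely covered chromatin close by. The centre, chromosome 5 from 172650001 to 172670000, had 16.5% of its bases in peaks of list 1 and 3.54% in peaks of list 2, while the flank had 53.9% and 35.0%. The bins on either side of it were covered 85.2% and 82.0% in list 1, and 68.6% and 32.4% in list 2. List 1 held 4 peaks in the centre, of which the 3 that did not reach its edge had folds of at most 1.51. List 2 held 2 peaks that only reached in at the edges and left 19.3 kb free between them. The higher-coordinate side, towards STC2, was covered more than the side of BNIP1, at 69.8% against 38.0% in list 1 and 49.9% against 20.1% in list 2. The highest folds of the window, 2.78 in list 1 and 3.24 in list 2, belonged to peaks about the same place, from 172622620 to 172628341 and from 172624088 to 172628359. Elsewhere in the window 3 bins of list 1 and 6 of list 2 were covered less than the centre, 4 of the latter without a peak base. With a centre of 60 kb the difference was 10.0 and 1.22 percentage points, and moved 10 kb towards lower coordinates it was 3.67 in list 1.

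MYOD1, the basic helix-loop-helix factor of skeletal muscle, had a short stretch of low coverage just beyond its centre. The centre, chromosome 11 from 17730001 to 17750000, had 35.4% of its bases in peaks of list 1 and 34.7% in peaks of list 2. The flank was covered 57.1% in list 1 and 32.5% in list 2, so the centre was lower in list 1 by 21.7 percentage points and higher in list 2 by 2.12. The bin before the centre was covered fully in list 1 and 78.2% in list 2, and the bin after it 0% and 1.72%. The next bin was covered 45.9% and 15.5%, and the one after that fully in list 1 and 74.7% in list 2. List 1 held a peak of 1558 bp beside the middle, from 17740277 to 17741834, with a fold of 1.71. List 2 had 8.61 kb without a peak there. Low coverage was not confined to the place beside the centre. The longest free stretches of the window began 153 kb from the middle in list 1 (28.9 kb) and 151 kb in list 2 (32.5 kb), towards higher coordinates. OTOG and KCNC1 are the neighbouring protein-coding genes.

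PDX1, a homeobox factor of the pancreas and duodenum, had a higher centre in list 1 and no stable direction in list 2. Its centre, chromosome 13 from 28490001 to 28510000, was covered 65.5% against 48.4% of the flank in list 1, and 19.2% against 21.6% in list 2. The whole window was covered 49.1% and 21.5%, while chromosome 13 as a whole was covered 31.2% and 12.8%. The window was thus close to the median of all windows, on a chromosome with a low share. The chromosome share counts all bases up to the last peak, also stretches without peaks. The median leaves out windows without peak bases in the flank, so these references are not counted alike. A peak of 4.45 kb, from 28495625 to 28500072, reached over the middle in list 1 (fold 1.61), and a peak of 2.43 kb, from 28500833 to 28503265, began just beyond it in list 2 (fold 2.52). The sign in list 2 turned under 6 of 9 alternatives, and in list 1 kept to the limit of list 2 the difference was -13.5. The gene lies between the homeobox genes GSX1 and CDX2.

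SOX9, the factor of cartilage and of several epithelia, had the most covered window. Over chromosome 17 from 69870001 to 70370000, the covered share was 83.1% and 67.5%, against 36.6% and 19.6% of the whole chromosome. The centre was covered less, 63.7% against 83.9% of the flank in list 1 and 34.7% against 68.8% in list 2. No bin was covered less than the centre in list 2, and 3 were in list 1. With a centre of 10 kb the dip was deeper, at -52.7 and -65.1 percentage points. Short peaks still lay over the middle, 3.15 kb in list 1 (fold 1.86) and 366 bp in list 2 (fold 1.91). The flank held the only peak of all 10 windows with a −log10 q of at least 2, in list 2 from 70227965 to 70229114 with a fold of 3.46. The neighbouring protein-coding genes are KCNJ2 and SLC39A11. SOX9 and SOX2 both combined a densely covered flank with a lower centre, and both kept that direction in each list under every alternative that gave a value.

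MEIS2, a homeobox cofactor used in limb, brain and heart, is 212 kb long in RefSeq, far longer than the central 20 kb. The centre was covered 38.7% against 41.1% of the flank in list 1, where 5 peaks reached into it, and 0% against 16.8% in list 2. In list 2 the free stretch over the middle was 62.4 kb, the longest of the window. In list 1 the direction turned under 7 of 10 alternatives, so list 1 showed no stable difference at MEIS2. In list 2 it turned under 1 of 9, to 4.01 with the centre moved 10 kb towards lower coordinates. The least covered bin of list 1, at 1.66%, lay 80 kb from the middle on the side of higher coordinates, followed by a bin of 8.14%. The free stretch there ran from 75.7 to 102 kb in list 1. This place was chosen after its values had been seen, and no start was located on hg19.

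The sides of the window were unlike at some of the genes, but only PAX6 passed the 95th percentile of all windows. The covered share differed most between the sides at PAX6, by 41.6 percentage points in list 1 and 45.3 in list 2. The median difference over all windows was 10.3 and 8.12 points, and the 95th percentile was 40.3 and 33.9. NKX2-5 differed by 31.8 and 29.8 points in the same direction as PAX6. At GATA4, NANOG and MYOD1 the side of lower coordinates was covered more, by 29.7, 27.4 and 25.0 points in list 1 and by 16.5, 21.6 and 19.5 in list 2. SOX2, SOX9 and NEUROD1 had like sides, with differences of 4.37, 9.92 and 6.81 points in list 1 and 10.2, 3.47 and 2.74 in list 2.

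**Figure D3:**
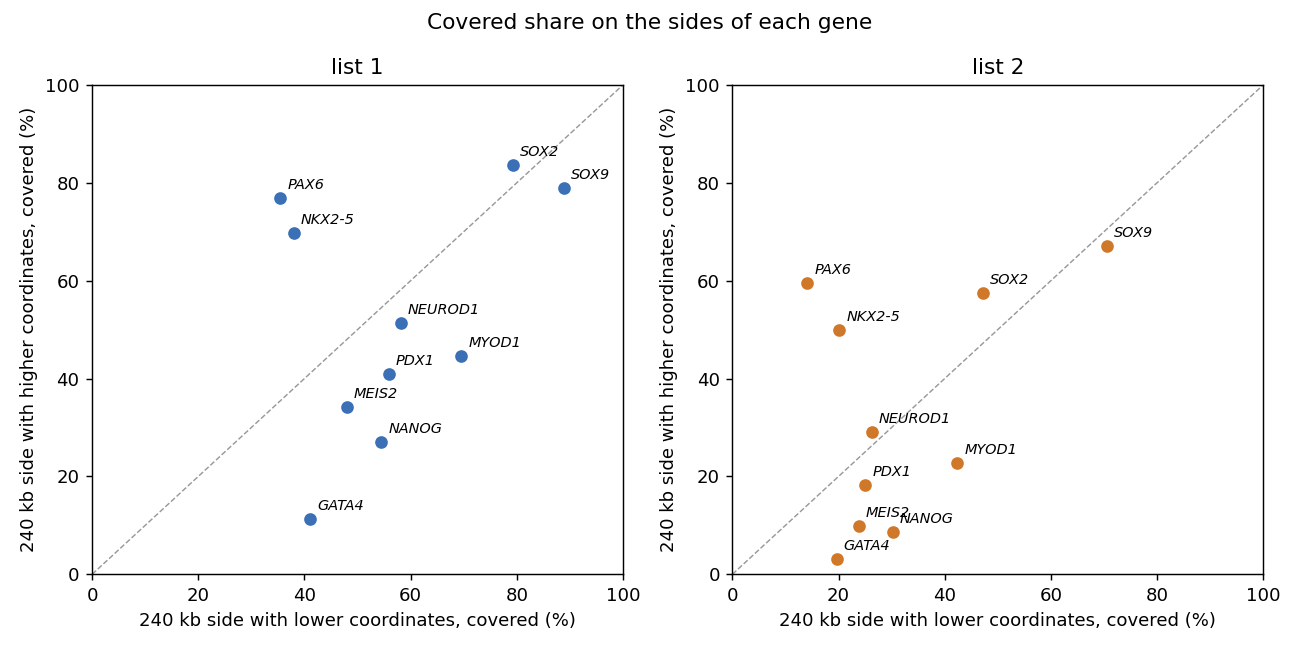
Covered share in percent of the 240 kb with lower coordinates (x axis) and the 240 kb with higher coordinates (y axis) beside each centre, in list 1 (left) and list 2 (right), with 1 point per gene and a dashed line where the sides are equal. PAX6 and NKX2-5 lie far above the line in both lists, and GATA4, NANOG and MYOD1 lie below it.

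Set among all windows, the differences between centre and flank were large at few of the genes. In list 1, 2.45% of all windows had a lower difference than SOX2 and 3.98% a lower one than NKX2-5. In list 2 these shares were 2.75% and 3.21%, and 2.58% for SOX9. At the other end, 93.3% of windows had a lower difference than NEUROD1 in list 1 and 94.4% a lower one than PAX6 in list 2. These genes were less extreme in the other list, at 84.3% for NEUROD1 in list 2 and 78.8% for PAX6 in list 1. A dip can only be as deep as its flank is covered, so GATA4 with its empty centre stood at 10.6% and 26.3%. These shares were not matched for flank coverage, gene content or DNA copy number, and the part of copy number, which is uneven in U2OS, was not tested.

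**Figure D4:**
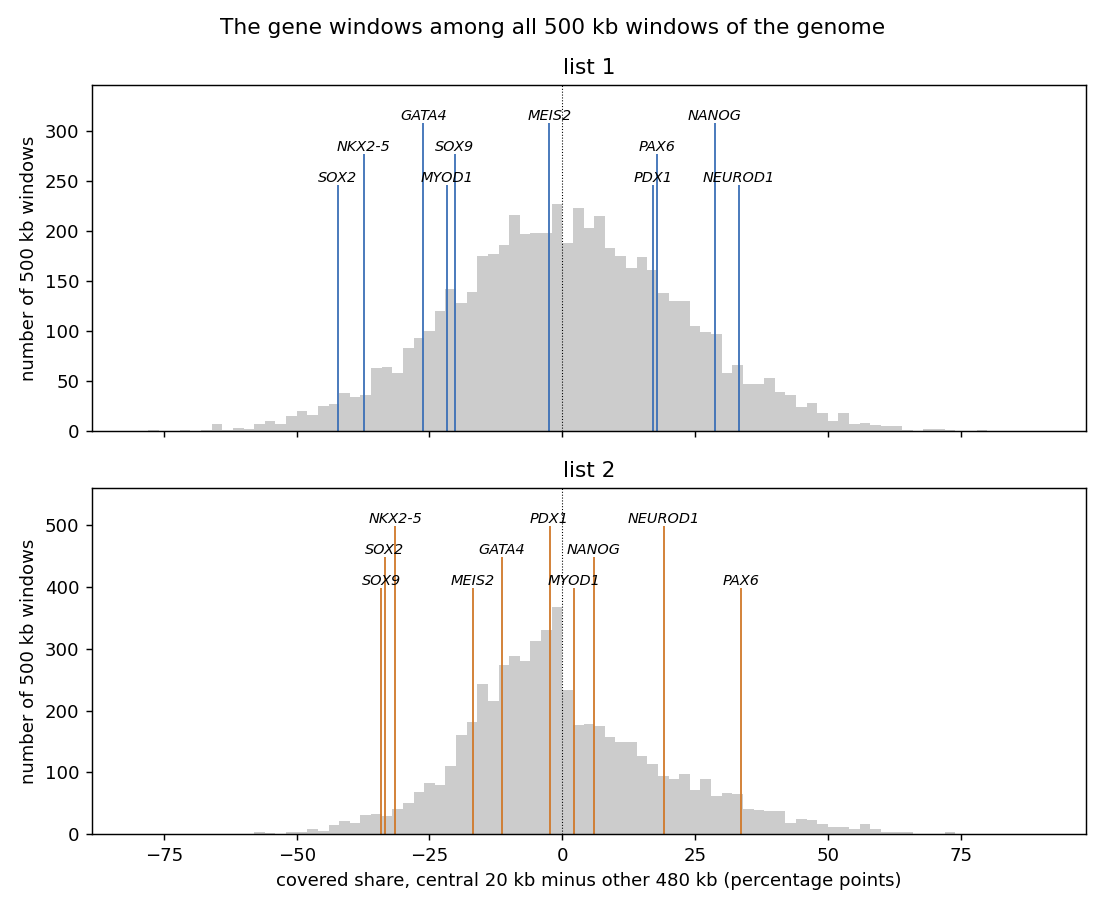
Histograms of the difference in covered share between the central 20 kb and the other 480 kb, in percentage points, over all 500 kb windows with peak bases in the flank, in list 1 (top, 5681 windows) and list 2 (bottom, 5665 windows). Coloured lines mark the 10 genes, and the height of a line has no meaning. SOX2 and NKX2-5 lie in the lower tail in both lists, SOX9 in that of list 2, and most others lie within the bulk.

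Enrichment within the windows was low, with window medians on both sides of the median of each list. The fold is the authors' own value, signal over the background of the peak caller. Its median by window ran from 1.57 at GATA4 to 2.06 at SOX9 in list 1, where the median of the list was 1.64, and from 2.05 at PDX1 to 2.30 at SOX9 in list 2, where it was 2.12. Of 599 peaks of list 1 in the windows, 0 had q of 0.05 or less, against 0.190% of the whole list. In list 2 it was 8 of 518 (1.54%), against 2.07%. Of these 8 peaks, NKX2-5 and NANOG had 3 each and SOX2 and SOX9 had 1 each. The lists ended at different limits, a lowest −log10 p of 1.02 in list 1 and 1.58 in list 2. A share of cells carrying the mark and an amount of mark per cell cannot be told apart in such data.

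The lists ranked the windows alike and the centres less so. Spearman's rho over the 10 genes was 0.964 for the covered share of the whole window and 0.745 for the difference between centre and flank, a description over genes in lists from the same cells. Of the peak bases of list 2, between 75.6% (PDX1) and 96.1% (SOX9) were also in list 1. Of those of list 1, between 30.7% (MEIS2) and 78.0% (SOX9) were also in list 2. Neither rho nor these shares were computed over all windows, so they are not a result about these genes. Overlap depends on how much of a window each list covers, and SOX9 had the most covered window in both lists.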

How the data were processed

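Chromatin immunoprecipitation and sequencing of H3K9me3 in U2OS cells gave 2 deposited broad peak lists on hg19. The authors worked with MACS2 2.2.7.1, Bowtie2 2.5.0, Trim Galore 0.6.7 and bcl2fastq 2.17, per the submitters' processing notes. For the cutoff, the control, duplicates and pooling, the sources used here give nothing. Each deposited peak carries a fold, which is a ratio over background, a −log10 p and −log10 q and a whole-number display score, and the deposited score was not used.

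Covered length was counted by base on chromosomes 1 to 22 and X, and was checked on simulated data. Background windows of 500 kb were laid end to end up to the last peak, and those with peak bases in the flank were kept. The share of a whole chromosome was taken over all bases up to its last peak. All 10 genes are named by rule. The nearest peak, highest fold, widest peak and neighbouring genes were found for every window, but only some of them are printed. The members, measures and alternatives were chosen with earlier results of these data known. Gene positions on hg19 came with the choice of genes, to the nearest 10 kb. RefSeq on GRCh38.p14 gave only gene names, lengths and promoters. Alternatives changed the width and place of the centre, the window, the peaks used, the counting of bases, and the start of the background windows. Python 3.11.15, numpy 2.4.6, pandas 2.3.3 and matplotlib 3.10.9 were used.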

Additional observations from a re-analysis of the deposited data

How the results depend on the processing

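No paired analysis was possible because neither list was assigned to a sample, and there was no replicate to leave out. Peaks with −log10 q of at least 2 gave no comparison, as 0 genes in list 1 and 1 in list 2 had any. The direction of the difference held under each other alternative for SOX2, GATA4 and SOX9 in both lists and for NEUROD1 in list 1. Where the centre stayed empty the sign could not turn, so such values say nothing on stability. This was so at GATA4 in every setting of list 2 and most of list 1, and in most settings at MEIS2 in list 2. The counts that follow include them. In all, 156 of 190 values for single genes kept their direction, 7 of 20 pairs of gene and list in every setting. Background windows started at 250 kb gave shares within 1.5 times those reported. Positions known to 10 kb and an unknown depth limit all values.

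With a centre of 60 kb, the median difference was 0.221 percentage points in list 1 and -1.80 in list 2. NKX2-5 turned to 10.0 and 1.22, 1 gene in each list lay under 0.5 times its flank, and 0 and 1 had no peak base. With a centre of 10 kb, 5 genes lay under 0.5 times in list 1, the median in list 2 was -11.0 and NEUROD1 in list 2 was -10.8. With the centre moved 10 kb towards lower coordinates, the medians were 3.46 and -4.30. NKX2-5 in list 1 was then 3.67, MEIS2 in list 2 4.01 and PAX6 in list 2 -8.83, 1 and 2 genes lay under 0.5 times, and 0 and 1 had no peak base. Moved towards higher coordinates, the median in list 1 was -7.16 and NANOG in list 1 was -9.49. Windows of 100 and 500 kb on either side gave medians of -6.79 and -7.11 in list 1, and peaks above the median fold gave -6.85. With list 1 kept only from the −log10 p at which list 2 ended, there were 5 genes under 0.5 times, 2 without a peak base, and the median window coverage was 15.9%. Bases in both lists gave 26.7%, 2 genes of list 1 without a peak base, and a median difference of -11.2 in list 2. The cause of these changes was not tested.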
